A study of Mus musculus with 13 samples.

Results

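Cultured immature Sertoli cells were compared with the uncultured male gonad of an earlier embryo, across all genes that could be named on a mouse expression array. The comparison used 4 of the 13 arrays of the series. A pair of arrays held immature Sertoli cells from testes of embryos at 19 days post coitum (dpc), grown for 3 days in DME medium with 10% fetal bovine serum (FBS). The other pair held male gonads taken at 14.5 dpc, whose RNA was extracted with no culture step. Both groups were wild type and carried no transgene. The strain, the way the Sertoli cells were isolated, and whether a pair of arrays came from separate animals, cultures or labellings are not given in the labels. Total RNA had been extracted with a Qiagen RNAEASY kit, labelled with Cy3 and hybridised to 1-colour Agilent arrays, 1 sample per array. The members were the features with a gene symbol whose signal lay above the array median on at least 2 of the 4 arrays. They numbered 22830 of the 62976 features and gave 15100 of the 20738 named genes, each represented by its brightest feature over the 13 arrays.

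Sertoli cells are the supporting epithelium of the testis cord: in the embryo they surround the germ cells, secrete anti-Müllerian hormone and desert hedgehog, and clear retinoic acid so that male germ cells do not enter meiosis before birth. The fetal gonad also holds germ cells, steroid-making Leydig cells, other interstitial cells, vessels with blood, macrophages and a covering mesothelium. The 14.5 dpc sample is therefore a mixed organ, and the 19 dpc sample is a short-term culture labelled as 1 of its cell types. Whether other cell types remained in that culture was not tested. Age, culture in serum, and isolated cells against whole organ change together between the groups and cannot be told apart. In either RNA pool, fewer cells of a type and less RNA per cell cannot be told apart.

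Values are log2 signals, and every array has the same median, 7.49. A value near or under 7.49 is dim by rank, and its difference from a bright value rests on an unknown background. Replicate arrays lay 0.26 apart for the cultures and 0.16 for the gonad, as the root mean square of log2 differences over tested genes, while the group means lay 1.21 apart. The cultures lay 0.999 from the mature Sertoli cultures of the series, 1.29 from embryonic fibroblasts (MEF) and 1.55 from tail tip fibroblasts (TTF). The mature Sertoli cells came from testes of mice 8 weeks old and were cultured for 7 days. MEF and TTF had been grown for 3 passages. Each of these reference groups was, like the immature cultures, grown with 10% serum. The gonad lay 1.47, 1.53 and 1.80 from the same groups. Parts of the array differed between the culture replicates. The features were divided into 448 blocks by a layout inferred from the feature number order. Of these, 14 blocks had a median difference between the culture replicates over 0.3, up to 1.22, with the first replicate brighter. Which of the 2 culture arrays was off was not tested. No gonad block passed 0.3, and the gonad blocks lay between -0.14 and 0.14. These blocks hold 1536 features and 348 of the tested genes, and a gene named below that lies in them is marked as such.

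Differences are given as culture minus gonad on the log2 scale, with the standard error of a limma fit over all 13 arrays in 7 groups. Calls were made below an adjusted p of 0.05 (limma, Benjamini-Hochberg over the 15100 genes), and those p-values measure only the spread between arrays, which may be technical. Most genes passed: 11434, or 75.7%, of which 5231 were higher in the cultures (34.6%) and 6203 lower (41.1%). Gene groups are therefore read with an added size of 1 on the log2 scale, which 3930 genes passed (26.0%), 1857 higher (12.3%) and 2073 lower (13.7%). Below, "rose by 1 or more" and "fell by 1 or more" mean a call with that size. The arrays of the groups did not overlap for 88.0% of tested genes (40.9% higher and 47.1% lower). The median difference over all tested genes was -0.06. A size of 3 or more was reached by 265 higher and 244 lower genes, and a size of 5 or more by 42 and 44. Of the tested genes, 576 passed the filter only through the cultures and 666 only through the gonad, and such genes had to differ.

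**Figure D1:**
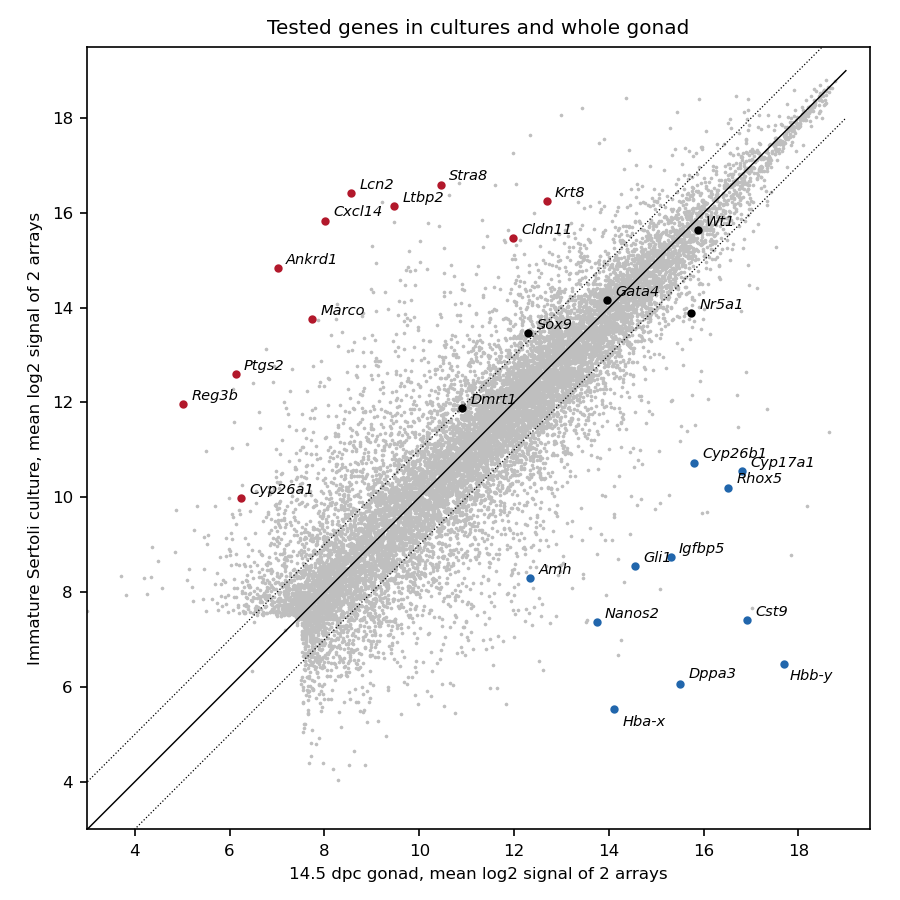
Mean log2 signal of the 2 gonad arrays (x axis) against that of the 2 culture arrays (y axis) for the 15100 tested genes (grey). The solid line marks equal signal and the dotted lines a difference of 1; blue genes fell, red genes rose, and the 5 black genes are the gonadal transcription factors of the series. Cst9, Dppa3 and the embryonic globin Hbb-y lie farthest below the line, and Lcn2, Cxcl14 and Ankrd1 farthest above it, while Wt1 and Gata4 lie near the line.

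The 5 gonadal transcription factors were all above the array median on every array of both groups; 2 were higher in the cultures, 2 lower, and Gata4 did not pass. Wt1, which is needed to keep Sertoli identity, read 15.61 and 15.67 in the cultures and 15.86 and 15.88 in the gonad. The cultures lay slightly lower without overlap, a difference of -0.23 ± 0.07 (limma adjusted p = 0.00979), a call lost without the first culture array (limma adjusted p = 0.0503). Gata4, which acts early in the genital ridge, read 14.04 and 14.28 in the cultures and 13.91 and 14.03 in the gonad, a difference of 0.19 ± 0.14 that did not pass (limma adjusted p = 0.249). For Sox9, the factor that commits the supporting cell to the Sertoli fate, the values were 13.56 and 13.38 in the cultures and 12.34 and 12.25 in the gonad. Both culture arrays were higher, by 1.17 ± 0.07 (limma adjusted p = 4.3e-07). Dmrt1, which holds off ovarian genes in the testis and also acts in germ cells, read 11.96 and 11.79 in the cultures and 10.97 and 10.84 in the gonad and was higher by 0.98 ± 0.08 (limma adjusted p = 2.65e-06). Nr5a1, the nuclear receptor that drives steroid genes in Leydig cells and Amh in Sertoli cells, read 13.77 and 14.02 in the cultures and 15.71 and 15.76 in the gonad, and both culture arrays were lower, a difference of -1.84 ± 0.09 (limma adjusted p = 7.68e-08).

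Of the 32 fetal Sertoli genes listed, all were tested, and 2 of them passed only through the gonad. There were 5 that rose by 1 or more and 13 that fell by 1 or more, with a median difference of -0.32. The largest loss was in Cst9, a cystatin of the fetal Sertoli cell, which read 7.55 and 7.29 in the cultures and 16.98 and 16.85 in the gonad. Both culture arrays were dim and both gonad arrays bright, a difference of -9.50 ± 0.60 (limma adjusted p = 6.4e-07). Its standard error is wide because the fit shares 1 spread over all groups, and each pair of arrays here lay much closer. Cyp26b1, the enzyme that breaks down retinoic acid, read 10.63 and 10.84 in the cultures and 15.83 and 15.78 in the gonad, and Ptgds, the prostaglandin D synthase that supports Sox9, read 12.65 and 12.65 in the cultures and 16.88 and 16.90 in the gonad. Neither pair of groups overlapped, and the differences were -5.07 ± 0.08 and -4.24 ± 0.06. Anti-Müllerian hormone, Amh, which removes the Müllerian duct, read 8.26 and 8.34 in the cultures and 12.33 and 12.36 in the gonad. It fell by 4.05 on the log2 scale (limma adjusted p = 7.89e-08), to a level still above its means of 5.87 in MEF and 6.44 in TTF. Hsd17b3, which fetal Sertoli cells use to finish testosterone made from Leydig cell precursors, fell by 3.51, and the collagen IX chain Col9a3 and Cbln4 had differences of -4.42 and -2.70.

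Other Sertoli genes rose or did not pass. Cldn11, the claudin of the Sertoli tight junction, read 15.43 and 15.50 in the cultures and 11.96 and 11.99 in the gonad, a rise of 3.49 ± 0.06 (limma adjusted p = 1.5e-10). The keratin pair of simple epithelia and of the fetal Sertoli cell rose together: Krt8 read 16.18 and 16.33 in the cultures and 12.70 and 12.68 in the gonad, and Krt18 read 17.40 and 17.55 in the cultures and 13.78 and 13.81 in the gonad. In each, the lower culture array stood more than 3 above the higher gonad array, although Krt18 also had a mean of 13.65 in MEF. Gatm, an enzyme of creatine synthesis, rose by 1.14. Inha, the inhibin alpha subunit, read 15.76 and 15.69 in the cultures and 14.97 and 15.01 in the gonad and was higher by 0.74 ± 0.06, and Clu, a secreted chaperone, was higher by 0.54. Mro, Tesc and Inhbb did not pass, with differences of 0.03, 0.19 and -0.12. In the cultures, 24 of the 32 fetal Sertoli genes were at least 1 above both fibroblast means, and 25 of 32 were in the gonad. So were 17 of 20 germ line piRNA pathway genes and 20 of 24 meiosis genes in the cultures. The count therefore does not set Sertoli genes apart, and the share over all tested genes was not computed.

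Genes of the later Sertoli cell did not move one way. Of 17 on the array and tested, of which 1 passed only through the gonad, 4 rose by 1 or more and 5 fell by 1 or more, and the median difference was 0.00. Cst12 read 15.45 and 15.57 in the cultures and 11.41 and 11.44 in the gonad, and the defensin Defb36 read 14.02 and 14.30 in the cultures and 11.85 and 11.84 in the gonad; both culture arrays were higher for each. Cldn3, a claudin of the maturing blood-testis barrier, read 12.98 and 12.91 in the cultures and 9.07 and 9.12 in the gonad, also higher in both culture arrays. Its mean in the mature Sertoli cultures was only 8.66, below both gonad arrays. The androgen-responsive homeobox gene Rhox5 went the other way, with 10.15 and 10.26 in the cultures and 16.46 and 16.58 in the gonad, and fell by 6.31 (limma adjusted p = 6.92e-11). Cldn5 fell by 4.40; endothelial cells also make this claudin. Fshr, through which follicle-stimulating hormone acts, read 8.70 and 8.64 in the cultures and 8.78 and 8.72 in the gonad, and its difference of -0.08 ± 0.51 did not pass (limma adjusted p = 0.894). Among 10 tested genes of the ovarian or granulosa programme, 4 rose and 3 fell by 1 or more. The rises were Fst, which binds activin, Runx1, Bmp2 and Wnt4 (4.63, 3.50, 1.45 and 1.44). The falls were Nr5a2, Rspo1 and Lgr5 (-2.81, -2.79 and -1.81), while Foxl2 did not pass. The other feature of Nr5a2 gave -0.82.

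Germ cell identity genes were the listed germ line group with the lowest median. Of 25 tested, of which 4 passed only through the gonad, 16 fell and 3 rose by 1 or more, and the median difference was -2.67. Dppa3, a maternal and primordial germ cell factor, read 6.15 and 5.98 in the cultures and 15.49 and 15.53 in the gonad, and Nanos2, the RNA-binding protein that imposes the male germ line fate, read 7.38 and 7.34 in the cultures and 13.68 and 13.80 in the gonad. Both culture arrays were at or below the array median for each, and the gonad arrays were far above it. Prdm14, Dppa5a and Utf1 fell, with differences of -6.19, -5.48 and -5.21, Sox2 with -4.17, and Pou5f1 with -3.25. Nanog fell by 0.84 on the feature used, but its features ranged from -5.77 to -0.84.

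Several germ line transcripts were still bright in the cultures. Dazl, an RNA-binding protein of all germ cells, read 13.02 and 13.03 in the cultures and 14.01 and 13.86 in the gonad, against means of 4.88 and 6.23 in MEF and TTF. The culture arrays were lower without overlap, a difference of -0.91 ± 0.30 (limma adjusted p = 0.0212), a call lost when any one of the 4 arrays was left out (limma adjusted p from 0.053 to 0.09). Ddx4, the germ line helicase, read 12.09 and 12.20 in the cultures and 14.21 and 14.32 in the gonad and fell by 2.12. Kit, the receptor for stem cell factor, read 12.84 and 12.73 in the cultures and 12.92 and 12.73 in the gonad and did not pass (limma adjusted p = 0.785). Zbtb16, known as Plzf and used by later spermatogonia, rose instead, with 11.81 and 11.84 in the cultures and 8.36 and 8.51 in the gonad, a difference of 3.39 ± 0.07. Rhox10 was higher by 1.04, and so was Ifitm3 by 1.95, a gene that is also interferon-induced and bright in fibroblasts. In the cultures 15 of these 25 genes were at least 1 above both fibroblast means, as were 18 in the gonad, but the share over all tested genes was not computed. The part of remaining germ cells in any Sertoli value was not tested.

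The piRNA pathway silences transposons in the fetal male germ line. Of its 20 tested genes, 8 fell and 0 rose by 1 or more (2 were higher at any size), with a median of -0.33. Stk31, Tdrd5 and Tdrd12 had the lowest differences (-2.26, -2.25 and -1.98). Piwil2 read 10.71 and 10.50 in the cultures and 11.01 and 10.97 in the gonad, and its small difference of -0.38 ± 0.13 lost its call without either gonad array or the second culture array. Mael read 13.77 and 13.52 in the cultures and 14.70 and 14.48 in the gonad, a difference of -0.95 ± 0.37 whose call was lost when any one of the 4 arrays was left out, with culture values close to its mean of 14.00 in the mature Sertoli cultures.

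Among 24 genes of meiosis, of which 2 (Sycp2 and Spo11) passed only through the gonad, 8 fell and 4 rose by 1 or more. Falls included the cohesin subunits Smc1b and Stag3 (-1.73 and -1.57) and Spo11, which cuts DNA for recombination (-1.88). Stra8, the gatekeeper of meiotic entry that retinoic acid induces, was the largest rise: it read 16.71 and 16.49 in the cultures and 10.52 and 10.39 in the gonad. Both culture arrays stood about 6 above both gonad arrays, a rise of 6.14 ± 0.24 (limma adjusted p = 2.51e-08). The mean of Stra8 in the mature Sertoli cultures was 12.65, and it was 5.56 and 6.68 in the fibroblasts. Rec8, a meiotic cohesin that also responds to retinoic acid, rose by 1.37, Mei1 by 2.14 and Taf7l by 1.27. Sycp3, Syce3 and Dmc1 did not pass (-0.07, 0.12 and 0.05).

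Steroid synthesis genes of the fetal Leydig cell fell in most cases. Of 12 tested, of which 1 (Mc2r) passed only through the gonad, 9 fell and 0 rose by 1 or more (1, Por, was higher at any size), with a median of -2.16, and -1.98 over all on the array. Cyp17a1, the enzyme that makes androgen precursors, read 10.62 and 10.48 in the cultures and 16.78 and 16.82 in the gonad; both culture arrays were below its means in MEF and TTF, 11.22 and 11.28. It fell by 6.25 (limma adjusted p = 1.68e-09). Hsd3b1 read 12.10 and 12.23 in the cultures and 16.71 and 16.72 in the gonad and fell by 4.55. Cyp11a1, which starts all steroid synthesis, fell less, from 15.56 and 15.64 in the gonad to 13.78 and 14.01 in the cultures, a difference of -1.71 ± 0.41. Mc2r, Hsd3b6, Cyp21a1 and Cyp11b1 also fell, with differences of -5.31, -4.06, -2.85 and -2.33. The other feature of Cyp21a1 gave -0.52.

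Interstitial progenitor genes also fell in most cases. Of 16 tested, 10 fell and 0 rose by 1 or more (3 were higher at any size), with a median of -1.98. Tcf21, a factor of the fetal interstitium, read 10.78 and 10.88 in the cultures and 13.73 and 13.90 in the gonad. Nr2f2, known as Coup-tfII and a marker of Leydig precursors, read 11.35 and 11.51 in the cultures and 14.34 and 14.37 in the gonad, and the groups did not overlap for either gene. Lum and Dcn, matrix proteoglycans of stromal cells, fell, with differences of -3.75 and -2.39, and Lhx9 with -3.57. The growth factor receptors Pdgfra and Pdgfrb fell, with differences of -2.53 and -2.29. Igf1 was higher by 0.62 on the feature used, but its features disagreed and their mean gave -0.015.

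Endothelial and red cell genes fell in most cases. Of 25 endothelial genes tested, of which 4 passed only through the gonad, 18 fell and 0 rose by 1 or more (1, Flt1, was higher at any size). Their median was -2.51, and -2.47 over the 26 on the array. Mmrn2, a matrix protein of vessels, read 9.19 and 9.19 in the cultures and 13.24 and 13.18 in the gonad, and Aplnr, the apelin receptor, read 6.94 and 6.98 in the cultures and 11.76 and 11.76 in the gonad. Both culture arrays lay at fibroblast levels. Vwf, Esam and Tie1 fell, with differences of -3.93, -3.59 and -3.42, and Cdh5, in the uneven blocks, read 9.60 and 8.22 in the cultures against 12.17 and 12.28. Robo4 stayed bright at 12.48 and 12.61 in the cultures, a fall of 0.63. Kdr did not pass on the feature used (-0.14), though another of its features gave -2.51.

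Of 13 red cell genes tested, 7 passed only through the gonad. Their median was -4.83 over the 13 tested and -3.38 over the 15 on the array. There were 9 that fell by 1 or more, 6 without the uneven blocks, and 0 that were higher. The adult alpha globin Hba-a1 read 9.71 and 9.94 in the cultures and 18.14 and 18.24 in the gonad, and Hbb-bt, an adult beta globin, read 8.65 and 8.93 in the cultures and 17.79 and 17.89 in the gonad. Both stayed above the array median in the cultures, where the MEF means were 7.08 and 5.07. Hbb-y, an embryonic globin in the uneven blocks, had the largest fall of all named genes, from 17.68 and 17.70 in the gonad to 6.71 and 6.28, a difference of -11.20 ± 0.20. The other globins among the 15 largest falls were Hbb-b2, Hba-x, Hba-a2 and, in the uneven blocks, Hbb-bs (-9.35, -8.58, -7.26 and -7.51). Some of the globin genes are near-identical copies of each other, and the array may not separate those. Alas2, the first enzyme of heme synthesis in red cells, fell by 4.83, and the band 3 anion exchanger Slc4a1 with -3.38.

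Contractile genes of smooth muscle and peritubular cells rose in most cases. Of 18 tested, of which 1 passed only through the cultures and 1 only through the gonad, 13 rose and 1 fell by 1 or more, with a median of 1.94. Actg2, the smooth muscle gamma actin, read 15.77 and 15.80 in the cultures and 10.16 and 10.19 in the gonad, and calponin, Cnn1, read 15.77 and 15.69 in the cultures and 10.53 and 10.31 in the gonad. Both culture arrays were more than 5 higher for each. Tagln and Acta2 rose by 4.05 and 2.51, the myosin Myh11 by 2.73, and Des by 1.91. Rgs5, a marker of pericytes, went the other way and fell by 2.50, while Itga8 was lower, at -0.45. The same contractile genes were bright in fibroblasts, with MEF means of 16.98 for Actg2 and 17.09 for Cnn1. The list mean was 13.69 and 13.64 in the cultures and 11.82 and 11.76 in the gonad, and the part of such cells in the adhesion and matrix values was not tested.

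Macrophage genes rose in part. Of 20 tested, of which 1 (Cd68) passed only through the cultures and 1 (Ptprc) only through the gonad, 5 rose and 1 fell by 1 or more, with a median of 0.30. Mpeg1, a perforin-like protein that lies in the uneven blocks, read 14.56 and 14.44 in the cultures and 10.85 and 10.94 in the gonad, a rise of 3.60 ± 0.08. Cd14, the endotoxin co-receptor, rose by 3.23, Ms4a7 by 2.32, lysozyme, Lyz2, by 1.58 and Csf1r by 1.27, although the features of Csf1r ranged from -0.04 to 1.31. Ptprc, the pan-leukocyte antigen CD45, read 7.46 and 7.35 in the cultures and 7.64 and 7.68 in the gonad, near the array median, and did not pass (limma adjusted p = 0.0654). Cx3cr1, the fractalkine receptor, fell by 2.27. The list mean, over its 22 genes on the array, was 9.63 and 9.68 in the cultures and 9.18 and 9.13 in the gonad.

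Markers of the covering and of ducts split. Among 10 mesothelial genes, 3 rose and 3 fell by 1 or more. Msln, mesothelin, read 12.84 and 12.90 in the cultures and 9.09 and 9.15 in the gonad and Krt19 read 14.38 and 14.41 in the cultures and 10.93 and 10.87 in the gonad, both higher in both culture arrays, whereas Muc16, Upk3b and Bnc1 fell, with differences of -2.08, -2.05 and -1.42. Fibroblasts also held both of the genes that rose: the means in MEF and TTF were 12.7 and 11.7 for Msln, and 11.6 and 13.9 for Krt19. Among 9 tested genes of the mesonephric duct, 4 rose and 2 fell by 1 or more, and 1 fell when the second gonad array was left out. Wfdc2, a secreted antiprotease of duct epithelium, read 14.08 and 14.14 in the cultures and 9.63 and 9.74 in the gonad, and the kidney cadherin Cdh16 read 12.10 and 12.11 in the cultures and 8.50 and 8.56 in the gonad. Both were more than 3 higher in both culture arrays, and their MEF means were 8.83 and 6.63. Cdh1 and Epcam did not pass (-0.34 and -0.26). Nerve and glia genes included the falls of Ngfr (-5.22) and Sox10 (-2.65) and 1 rise, Tubb3 (3.55), among 8 tested, of which 1 passed only through the gonad.

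**Figure D2:**
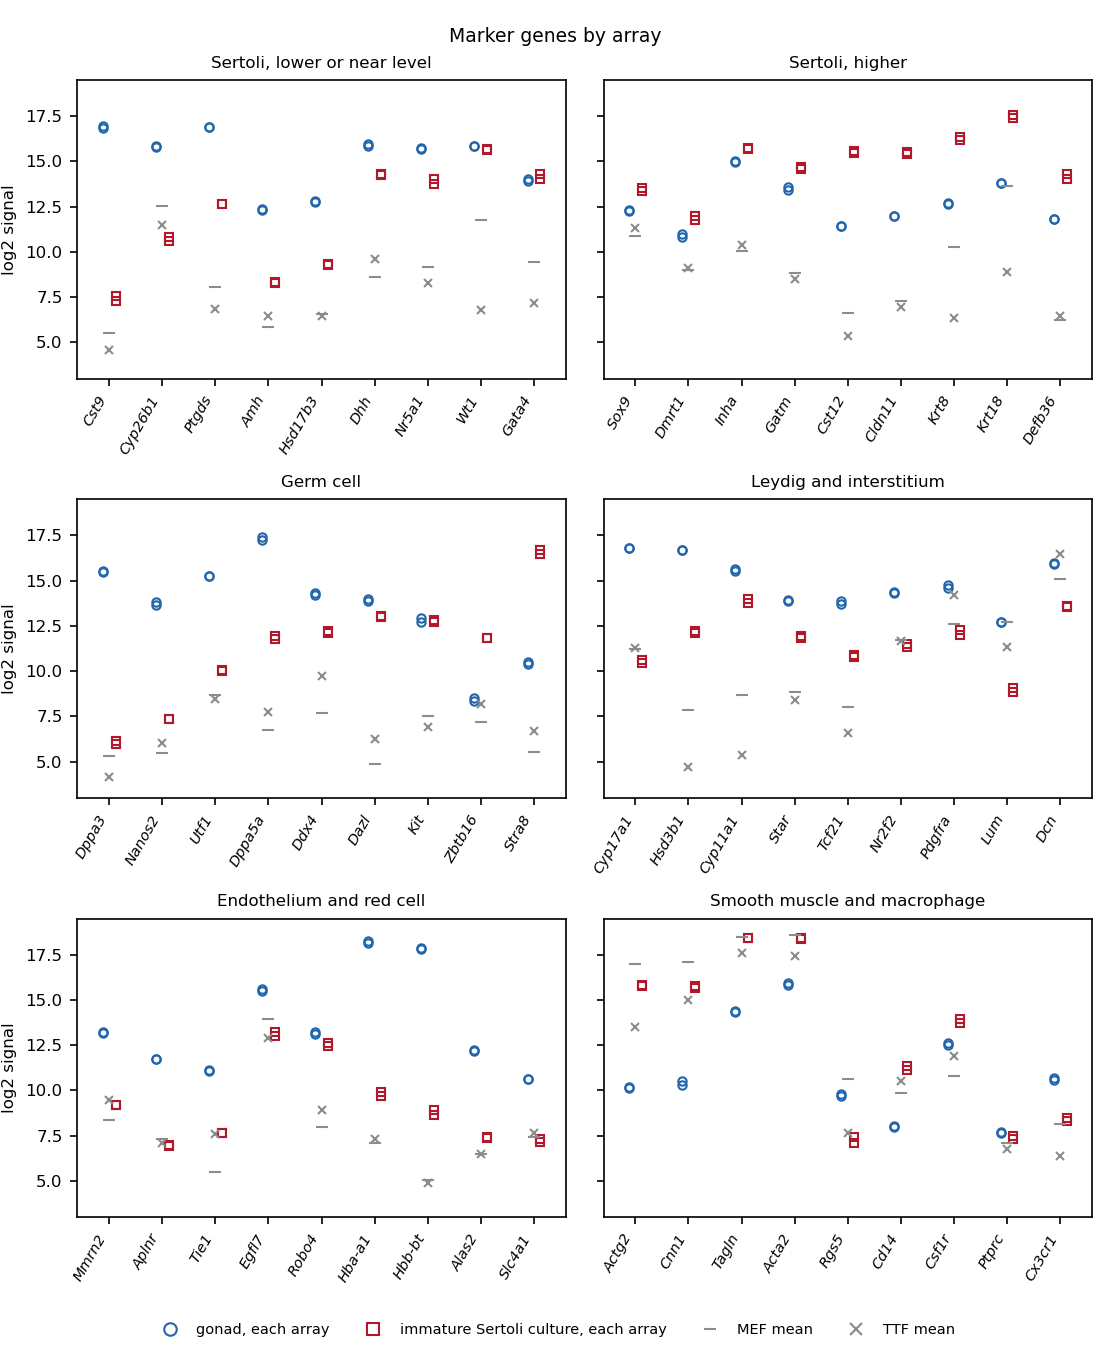
Log2 signal (y axis) of marker genes on each of the 2 gonad arrays (blue circles) and each of the 2 culture arrays (red squares), with the means of 2 MEF arrays (grey dash) and 2 TTF arrays (grey cross). The array median is 7.49. Dppa3 and Nanos2 lie below the array median in the cultures while Dazl and Kit stay near their gonad levels, and Stra8 stands about 6 above its gonad arrays.

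Retinoid genes changed in both directions. Of 17 tested, of which 1 (Cyp26a1) passed only through the cultures, 5 rose and 2 fell by 1 or more, with a median of 0.36. Cyp26b1 was one of the falls. Its relative Cyp26a1, also a retinoic acid hydroxylase and a target of retinoic acid itself, read 9.87 and 10.11 in the cultures and 5.98 and 6.50 in the gonad, a rise of 3.75 ± 0.16 from a dim gonad level (limma adjusted p = 5.2e-08). Stra6, the receptor that takes up retinol, read 12.51 and 12.66 in the cultures and 10.05 and 10.16 in the gonad, and Rdh10, which oxidises retinol, read 12.03 and 12.17 in the cultures and 9.61 and 9.47 in the gonad; both culture arrays were higher. Rarb, a retinoic acid receptor that retinoic acid induces, rose by 1.48 on the feature used, from 9.12 and 9.03 to 10.65 and 10.47, though another feature gave -0.88. Of the synthesis enzymes, Aldh1a1 was higher by 0.34 and Aldh1a2 was lower, at -0.95. The binding protein Crabp2 fell by 2.01 and Crabp1 rose by 2.07.

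The upstream sequence of these genes was read where the data touch it, because Cyp26a1 and Rarb are known targets of retinoic acid receptors bound at a direct repeat. A direct repeat, TTCA then any 5 bases then AGTTCA on either strand, was searched in the 250 bases before the RefSeq start (build GRCm38.p6). It was found for 30 of 27025 genes, 0.111%, and for 2 of the 15 retinoid genes that matched a promoter, printed here with the repeat in capitals. Cyp26a1 is at chr19:37697746-37697807, plus strand, with the repeat 32 to 18 bases before the start. Rarb is at chr14:16575483-16575557, minus strand, with the repeat 51 to 37 bases before it. Both lines run 5′ to 3′ on the gene's strand, where the repeat of Cyp26a1 reads in the opposite orientation. A match is a description of these letters, not a bound site. Because the repeat was chosen for these known targets, finding it in them tests nothing about the list.
Cyp26a1: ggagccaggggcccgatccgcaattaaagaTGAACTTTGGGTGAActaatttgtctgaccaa
Rarb: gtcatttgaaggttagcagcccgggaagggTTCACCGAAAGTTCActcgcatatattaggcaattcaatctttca

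Hedgehog signalling runs in the testis from Sertoli cells, which secrete the ligand, to interstitial cells, which read it. Of 16 genes tested, of which 1 (Shh) passed only through the gonad, 8 fell and 1 rose by 1 or more, with a median of -0.87. The ligand Dhh read 14.27 and 14.32 in the cultures and 15.86 and 15.95 in the gonad; the culture arrays were lower, a difference of -1.61 ± 0.06, but far above the MEF mean of 8.62. Genes that respond to the ligand fell too. Gli1, the transcription factor that the pathway induces, read 8.53 and 8.59 in the cultures and 14.53 and 14.56 in the gonad, a fall of 5.99 (limma adjusted p = 4.37e-11) to fibroblast level. Hhip, which binds and holds the ligand, fell by 3.75 (its other feature gave -2.52), and Ptch1, the receptor, with -1.69. Gli2 and the co-receptors Cdon and Boc fell, with differences of -2.36, -2.07 and -1.15. Smo, the signal transducer, and Gli3 were lower, at -0.51 and -0.28, and Disp1, which releases the ligand, rose by 1.34.

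In the TGF-beta, BMP and activin family, 9 of 27 genes rose and 3 fell by 1 or more, 1 of the 27 having passed only through the cultures, with a median of 0.63. The antagonists of activin rose most. Fst read 14.06 and 13.88 in the cultures and 9.36 and 9.32 in the gonad, and Fstl3 read 14.83 and 15.08 in the cultures and 9.99 and 10.06 in the gonad; both culture arrays were more than 4 higher. Among ligands, Inhba, the activin A subunit, rose by 2.46, Tgfb3 by 2.62 and Tgfb2 by 1.75, while Bmp7 fell by 1.82 beside the fall of Amh. The receptor of Amh, Amhr2, read 14.74 and 14.92 in the cultures and 16.01 and 16.08 in the gonad and fell by 1.21. Id2, a target of BMP signals, rose by 1.77, and Id1 did not pass (0.02).

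**Figure D3:**
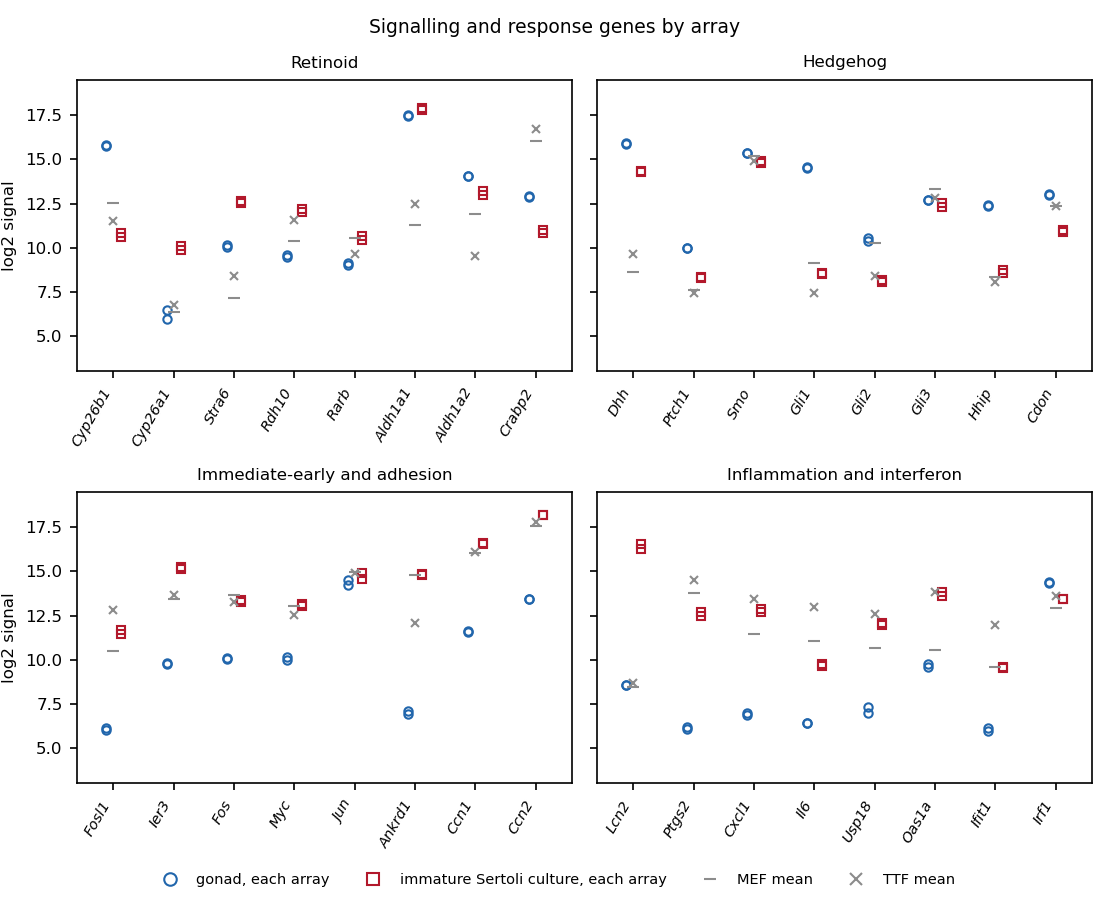
Log2 signal (y axis) of signalling and response genes on each of the 2 gonad arrays (blue circles) and 2 culture arrays (red squares), with MEF (grey dash) and TTF (grey cross) means of 2 arrays. Cyp26b1, Gli1 and Hhip are low in the cultures, and Cyp26a1, Fosl1, Ankrd1, Lcn2 and Ptgs2 are high; for Jun and Smo the groups lie close together.

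Cell division genes were bright in both groups. Of 22 mitosis genes tested, 18 were lower in the cultures and 1 higher, mostly by less than 1, with a median of -0.50. Mki67, the proliferation antigen, read 15.20 and 15.25 in the cultures and 15.48 and 15.49 in the gonad, a fall of 0.26. There were 3 that fell by 1 or more, Bub1, Cdc20 and Cenpe. Of these Cdc20 and Cenpe lie in the uneven blocks, where the culture replicates read 15.05 and 13.60 and 14.24 and 12.61; the count was 1 without those blocks and 0 without the second culture array. Of 23 DNA replication genes, 7 were higher and 11 lower, with a median of -0.10. Only Chaf1a fell by 1 or more, and it lies in the uneven blocks, with 12.51 and 10.40 in the cultures; the count was 0 without them, and 0 without either gonad array or the second culture array.

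Inhibitors of the cell cycle and p53 targets were higher in most cases. Of 23 tested, 11 rose and 3 fell by 1 or more, with a median of 0.93. Cdkn1a, the p21 inhibitor, read 13.78 and 13.65 in the cultures and 10.89 and 10.83 in the gonad, and Cdkn2b, the p15 inhibitor, read 11.87 and 11.85 in the cultures and 8.64 and 8.60 in the gonad. The groups did not overlap for either, though the 12 features of Cdkn1a ranged from 0.36 to 2.96. Perp and Fas rose by 3.81 and 3.59, and Gdf15, a stress-induced secreted factor, by 2.85. Cdkn1c, the imprinted p57 inhibitor, fell, with 11.39 and 11.42 in the cultures and 15.67 and 15.64 in the gonad. The p53 regulator Mdm2 did not pass (-0.01), and Pmaip1, a death effector of p53, fell by 2.06.

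Immediate-early genes, which cells switch on soon after a stimulus, rose in most cases. Of 22 tested, of which 2 passed only through the cultures, 18 rose by 1 or more and 0 were lower, with a median of 1.92. Fosl1, an AP-1 subunit, read 11.48 and 11.68 in the cultures and 6.15 and 6.05 in the gonad, and Ier3 read 15.26 and 15.12 in the cultures and 9.83 and 9.74 in the gonad. Both culture arrays were more than 5 above the gonad arrays. Fos, Myc and Egr1 rose by 3.25, 3.04 and 3.01. Jun and Jund did not pass (0.37 and -0.01). Egr2, Dusp1, Zfp36 and Socs3 lie in the uneven blocks, and 15 rises of 1 or more were left without those blocks. The list mean in the cultures, over its 24 genes on the array, was 12.46 and 12.30, close to that of MEF, 12.36.

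Genes of actin, adhesion and the mechanical YAP response also rose in most cases. Of 24 tested, of which 1 (Ankrd1) passed only through the cultures, 18 rose and 0 fell by 1 or more (1, Itgb5, was lower at any size), with a median of 1.81. Ankrd1, a YAP target, read 14.83 and 14.83 in the cultures and 6.92 and 7.10 in the gonad, a rise of 7.82 ± 0.08 (limma adjusted p = 1.97e-11). Ccn1, a matricellular YAP target, read 16.56 and 16.61 in the cultures and 11.55 and 11.63 in the gonad. Its relative Ccn2 read 18.22 and 18.21 in the cultures and 13.44 and 13.42 in the gonad. All of these culture values were at or above the fibroblast means. Actn1 and Vcl, which tie actin to adhesions, rose by 3.07 and 2.34, and the integrin Itga3 by 2.44. The cytoplasmic actins Actb and Actg1 differed by 0.25 and 0.06, near the top of the array's range; another feature of Actg1 gave 1.43.

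Matrix genes split by type. Of 17 collagen genes tested outside the basement membrane, of which 2 (Col9a1 and Col9a3) passed only through the gonad, 9 fell and 3 rose by 1 or more. Their median was -1.04, and -0.83 over the 18 on the array. Chains of collagen IX and II fell: Col9a2 read 9.16 and 9.30 in the cultures and 14.47 and 14.41 in the gonad, and Col9a1 and Col2a1 had differences of -4.93 and -2.84. Another feature of Col9a1 gave -0.25. Col11a1, of a cartilage collagen too, rose by 1.21. The main fibrillar chains Col1a1 and Col1a2 did not pass (0.12 and -0.04), and Col12a1 rose by 3.92. Of 21 basement membrane genes, of which 1 (Lamb3) passed only through the cultures, 8 rose and 2 fell by 1 or more. Lamb3, an epithelial laminin chain, read 10.49 and 10.61 in the cultures and 6.99 and 6.97 in the gonad, and the collagen IV chains Col4a5 and Col4a6 rose by 2.40 and 2.26, the latter by 0.93 on its other feature. Nid2 fell by 1.39; the other fall, Lama1, lies in the uneven blocks, and 1 fall was left without them. Of 19 proteases and inhibitors, of which 3 passed only through the cultures and 1 only through the gonad, 9 rose and 2 fell by 1 or more. Plaur, the urokinase receptor, read 14.46 and 14.71 in the cultures and 9.53 and 9.65 in the gonad, Adamts1 rose by 3.29 and Timp1 by 2.90, while Mmp2 fell by 1.38.

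Inflammation genes had the highest median of the 34 lists. Of 20 tested, 16 rose and 1 fell by 1 or more, with a median of 3.11; 8 passed only through the cultures, and over the 23 on the array the median was 2.81. Lcn2, an iron-scavenging acute-phase protein, had the largest rise of all named genes, with 16.30 and 16.54 in the cultures and 8.55 and 8.56 in the gonad, a difference of 7.86 ± 0.08 (limma adjusted p = 1.97e-11). Its means in MEF and TTF were 8.44 and 8.69, near the gonad values. Ptgs2, the inducible prostaglandin synthase, read 12.73 and 12.48 in the cultures and 6.06 and 6.19 in the gonad, and here the fibroblasts were brighter, at 13.77 and 14.51. The chemokines Cxcl5, Cxcl1 and Ccl2 rose by 6.21, 5.84 and 5.53, and the complement protein C3 by 4.66. Il6 read 9.67 and 9.78 in the cultures and 6.45 and 6.41 in the gonad, and Nfkbia, the inhibitor that NF-kappaB induces, rose by 1.07. Cxcl12, a chemokine that guides germ cells, fell by 1.22. The macrophage list rose in part beside these genes, and its part in them was not tested.

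The letters GGGA, any base and TTTCC, a form of the NF-kappaB site, were searched on both strands of the same upstream windows. They were found for 112 of 27025 genes, 0.414%, and for 4 of 17 inflammation genes with a promoter, Cxcl1, Cxcl2, Il6 and Nfkbia. The windows of 3 of them are printed 5′ to 3′ on the gene's strand with the match, in either orientation, in capitals: Cxcl1 at chr5:90891144-90891213, plus strand, Il6 at chr5:30013040-30013109, plus strand, and Nfkbia at chr12:55492648-55492706, minus strand.
Cxcl1: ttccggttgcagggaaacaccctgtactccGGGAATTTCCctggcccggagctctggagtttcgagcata
Il6: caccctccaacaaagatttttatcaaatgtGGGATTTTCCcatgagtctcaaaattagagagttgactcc
Nfkbia: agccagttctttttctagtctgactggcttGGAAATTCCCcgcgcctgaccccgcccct

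Interferon-stimulated genes, which cells use against viruses, rose in most cases. Of 30 tested, of which 4 passed only through the cultures and 1 only through the gonad, 22 rose and 1 fell by 1 or more, with a median of 2.07. Usp18, which shuts off the interferon receptor, read 11.95 and 12.09 in the cultures and 7.31 and 7.01 in the gonad, and Oas1a, an antiviral RNA sensor, read 13.63 and 13.81 in the cultures and 9.59 and 9.77 in the gonad. Both culture arrays were about 4 or more above the gonad arrays. Ifit1 and Ifi44 rose by 3.52 and 3.62, the factor Irf7 by 3.31, and the antigen presentation genes H2-D1, H2-K1 and Psmb8 by 2.75, 2.33 and 2.74; H2 genes are similar in sequence and may not be separated. Stat2 did not pass (-0.08) and Irf1 was lower, at -0.93. Xaf1 was the only fall of 1 or more, but its features ranged from -1.67 to 4.32 and their mean was 1.32. Isg15 lies in the uneven blocks, with 15.47 and 14.30 in the cultures and 12.81 and 12.94 in the gonad; the direction is the same on both culture arrays. The list mean was 11.77 and 11.73 in the cultures, 9.86 and 9.82 in the gonad, 11.31 in MEF and 12.93 in TTF.

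Interferon factors bind repeated GAAA boxes, and GAAA, any 2 bases and GAAA again on either strand was found in the 250 upstream bases of 936 of 27025 genes, 3.46%. It was found in 10 of 24 interferon genes that matched a promoter. The windows of 4 of them are printed 5′ to 3′ on the gene's strand with all matches, in either orientation, in capitals, overlapping matches running together: Ifit1 at chr19:34640755-34640843, plus strand, Ifit3 at chr19:34583343-34583446, plus strand, Oas1a at chr5:120907526-120907575, minus strand, and Isg15 at chr4:156200845-156200926, minus strand. Stat2, which did not pass, also holds a match.
Ifit1: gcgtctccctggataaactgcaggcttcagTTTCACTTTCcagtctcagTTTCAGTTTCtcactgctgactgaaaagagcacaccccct
Ifit3: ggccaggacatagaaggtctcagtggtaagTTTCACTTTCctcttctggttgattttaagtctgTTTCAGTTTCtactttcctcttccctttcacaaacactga
Oas1a: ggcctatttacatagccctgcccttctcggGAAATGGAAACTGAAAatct
Isg15: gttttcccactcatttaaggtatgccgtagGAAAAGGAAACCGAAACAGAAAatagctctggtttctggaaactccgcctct

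Of 15 oxidative and metal stress genes, of which 1 passed only through the cultures, 8 rose by 1 or more and 0 were lower. The metallothioneins, which bind zinc, rose: Mt2 read 17.24 and 17.31 in the cultures and 11.97 and 11.98 in the gonad, and Mt1 rose by 2.24. The thiol enzymes Srxn1 and Txnrd1 rose by 3.63 and 2.60, and Hmox1 was higher by only 0.29. Of 20 genes of cholesterol synthesis and control, 17 were lower and 1 higher, but 3 by 1 or more, with a median of -0.66. Tm7sf2 read 11.53 and 11.61 in the cultures and 14.82 and 14.76 in the gonad, and Hmgcs1, Sqle and Dhcr7 were lower, at -0.86, -0.74 and -0.92. Of 20 genes of glycolysis and lactate supply, 1 rose and 1 fell by 1 or more. These were the hexokinase Hk2 (2.81) and the glucose transporter Slc2a3 (-1.21). Ldha, which makes the lactate that Sertoli cells supply to germ cells, was higher by 0.82.

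Epithelial junction genes rose in 12 of 22 cases by 1 or more and fell in 2, with a median of 1.07. The claudin Cldn7 read 13.52 and 13.66 in the cultures and 9.96 and 10.00 in the gonad, and occludin, Ocln, a strand protein of tight junctions, read 10.61 and 10.75 in the cultures and 7.67 and 7.80 in the gonad. Cgn, cingulin, rose by 2.07 and Jam2 by 2.44. The neural cadherin Cdh2, which joins Sertoli cells to each other and to germ cells, read 16.10 and 16.11 in the cultures and 13.43 and 13.51 in the gonad. Cdh11, a mesenchymal cadherin, fell by 1.85, and Gjb2, a connexin, with -1.22. In the cultures 14 of the 22 were at least 1 above both fibroblast means, and 9 were in the gonad. The share over all tested genes was not computed, so these counts cannot be read as a trait of the list. Of 10 hormone receptor genes, the glucocorticoid receptor Nr3c1 rose by 1.08 and 0 fell by 1 or more (3 were lower at any size).

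Imprinted genes, many of which affect fetal growth, were lower in most cases. Of 23 tested, of which 1 passed only through the gonad, 17 fell and 0 rose by 1 or more (1, Sgce, was higher at any size), with a median of -1.73. Mest read 11.55 and 11.41 in the cultures and 16.75 and 16.68 in the gonad, and Asb4 read 8.30 and 8.30 in the cultures and 13.47 and 13.45 in the gonad; both culture arrays were about 5 lower. The other feature of Asb4 gave -1.58. H19 read 15.17 and 15.38 in the cultures and 17.49 and 17.58 in the gonad and Igf2, its neighbour, read 8.88 and 8.79 in the cultures and 11.36 and 11.14 in the gonad. Meg3 and Dlk1, which share a locus, fell, with differences of -3.27 and -1.37, and Peg3 and Plagl1 with -2.57 and -1.55. The features of Plagl1 ranged from -1.60 to 0.03 and those of Meg3 from -3.27 to -1.19. The MEF list mean, 12.70, was nearer to that of the gonad, 13.09 and 13.05, than to that of the cultures, 11.25 and 11.17. All other groups of the series lay below the cultures, with TTF at 10.67 and the mature Sertoli cultures at 10.42.

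**Figure D4:**
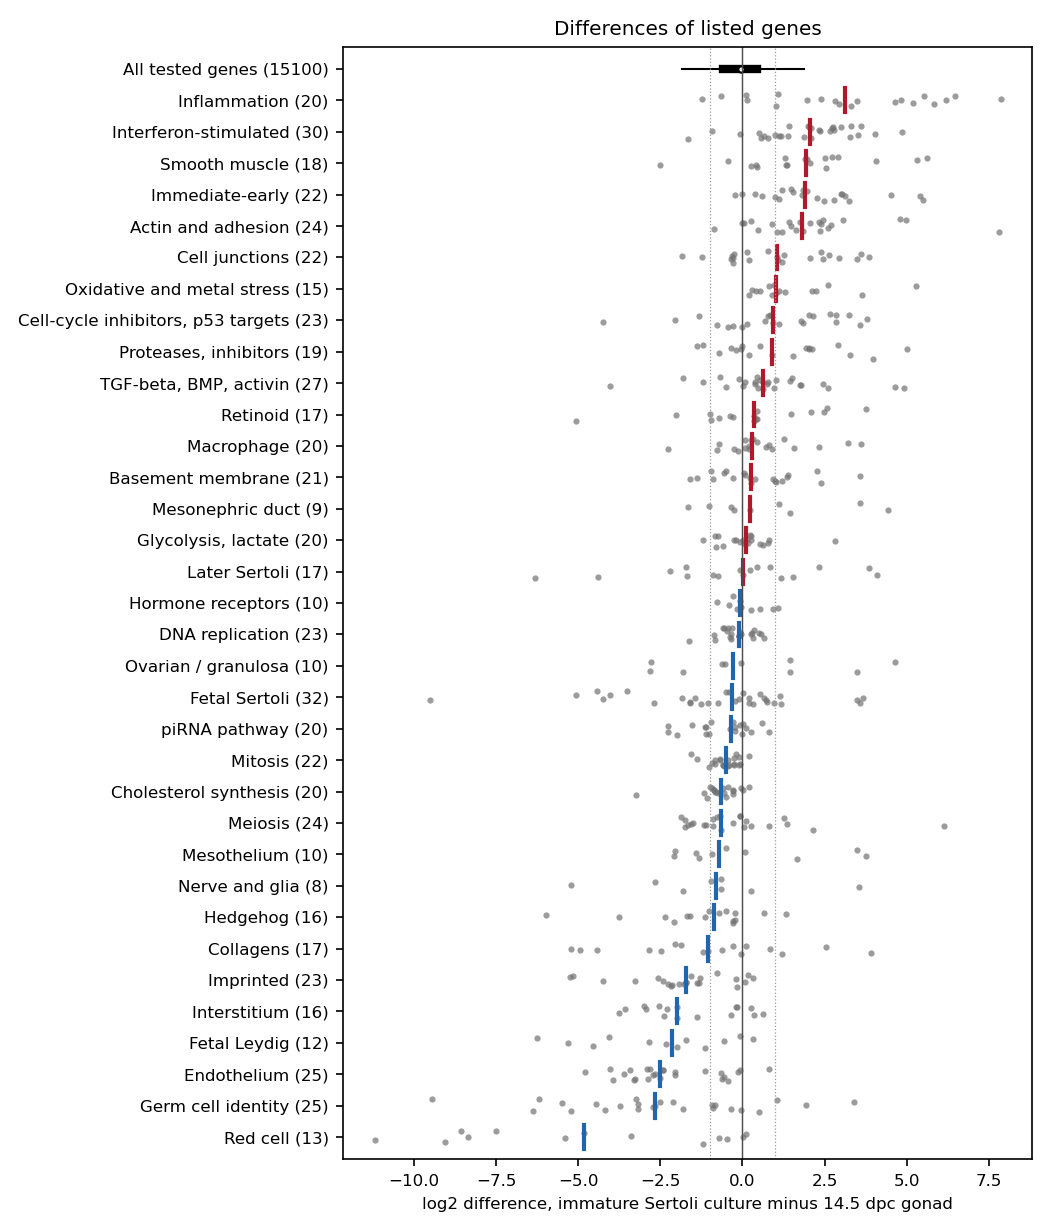
Log2 difference, culture minus gonad (x axis), of each tested gene (grey points) in the 34 gene lists, ordered by their medians (coloured bars, red above 0 and blue below); the number tested is in brackets. The top row gives all 15100 tested genes as the 5th to 95th percentile (thin line), the quartiles (thick line) and the median (white point, -0.06); dotted lines mark a difference of 1. Red cell, germ cell identity and endothelial genes lie lowest, and inflammation and interferon-stimulated genes highest.

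Several of the 15 largest changes in each direction fell outside the lists. Igfbp5, which binds insulin-like growth factors, read 8.74 and 8.73 in the cultures and 15.26 and 15.35 in the gonad, a fall of 6.57, and its means in MEF and TTF were 15.21 and 13.58. Ifitm1, a membrane protein of primordial germ cells, read 9.67 and 9.69 in the cultures and 16.07 and 16.08 in the gonad. Cpa1, a pancreatic type carboxypeptidase, read 7.21 and 6.76 in the cultures and 14.25 and 14.27 in the gonad, at or below the array median on both culture arrays. Ap3b2, of a vesicle adaptor complex, fell by 7.00 on the feature used and by 2.39 on the other. Among the rises, the chemokine Cxcl14 read 15.73 and 15.94 in the cultures and 7.98 and 8.03 in the gonad and the matrix protein Ltbp2 read 16.11 and 16.19 in the cultures and 9.49 and 9.46 in the gonad. Csf1, the macrophage growth factor, read 15.90 and 15.71 in the cultures and 9.51 and 9.42 in the gonad, and all of its 12 features rose, by 4.63 to 6.37. Cidea, a lipid droplet protein, read 16.11 and 16.34 in the cultures and 9.23 and 9.21 in the gonad, and Lgals3, a sugar-binding lectin, rose by 6.30. The antimicrobial lectin Reg3b rose by 6.96 from a gonad level below the array median, the scavenger receptor Marco by 6.02, and the growth factor Ereg by 5.91. Gpr176, an orphan receptor, and Tmem59l rose by 6.35 and 5.88. Like Reg3b, Ereg and Gpr176 lay below the array median on both gonad arrays and passed the filter only through the cultures.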

How the data were processed

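Expression was measured in 4 arrays of 2 groups, read beside 9 further arrays of the series. The authors deposited log2 signals with the same distribution on every array (minimum 0.566, median 7.488, 75th percentile 10.473, maximum 18.872). The submitters' processing notes name limma without saying for which step, and how background and detection were handled is not given in the sources used here. Arrays have no read depth, and precision is limited by their number. Gene names came from the platform's annotation, updated through RefSeq (GRCm38.p6): 31465 had 1 symbol and 31511 had none, and 6171 genes had several features. The log2 values were fitted in R 4.3.3 with limma 3.58.1 (linear model, moderated variances), with 6 residual and 2.69 prior degrees of freedom, two-sided, Benjamini-Hochberg adjusted over 15100 genes. The fit was tested on simulated data.

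The members, the 34 gene lists (692 genes) and the tests were chosen with earlier results of these data known. The text names the 15 largest rises and falls whose arrays do not overlap, the 5 factors, and list members. Uneven blocks were inferred from the feature number order, and that alternative was chosen after seeing the data. The 11 motifs searched in RefSeq promoters were chosen after seeing the data too, and 3 are described, each with matches in its list. Among those not described, the GLI motif matched 0 of 13 hedgehog genes (0.255% of all genes). The CArG box (CC, 6 bases of A or T, GG) matched 1 of 14 smooth muscle genes (1.62% of all). The AP-1 motif matched 5 of 15 protease and inhibitor genes (5.16% of all). Alternatives covered normalization, scaling, filters, features per gene, a minimum difference, variance models, array weights, arrays in the fit, leaving out each array and, added after seeing the data, the run of titles as a block.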

Additional observations from a re-analysis of the deposited data

How the results depend on the processing

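Quantile normalization and a common 75th percentile could change values by no more than rounding, since the deposited values already share 1 distribution, and so test nothing. Requiring a minimum log2 difference of 1 in the test itself (treat) left 2645 called genes, 1342 higher and 1303 lower. A filter at the 75th percentile, which tests fewer genes, left 3446 higher genes at any size, and 2547 genes with a size of 1 or more, 1247 higher and 1300 lower. Testing every feature gave 8218 higher features, 2858 of them with a size of 1 or more. Without 1 array at a time, called genes numbered 10301 to 10906, those higher 4699 to 5033, those lower 5602 to 5927, and those with a size of 1 or more 3842 to 4028 (1810 to 1881 higher, 2032 to 2147 lower). Without features in uneven blocks 11247 genes were called, 3791 with that size. With the mean of a gene's features, 5 named genes changed sign: Cdc6 to -0.140, Igf1 to -0.015, Rxrg to -0.377, Stard4 to 0.242 and Xaf1 to 1.324, and the features of these genes disagree. Of the 68 list counts of changes of 1 or more, 13 moved by over 1.5 times with the minimum difference in the test. Among falls, the piRNA pathway went from 8 to 3, meiosis from 8 to 5, mitosis from 3 to 0, cholesterol from 3 to 1, the mesonephric duct, basement membrane and proteases from 2 to 1, and DNA replication and glycolysis from 1 to 0. Among rises, fetal Sertoli genes went from 5 to 3, basement membrane from 8 to 4, oxidative stress from 8 to 5 and hormone receptors from 1 to 0. With the 75th percentile filter 10 moved. Among falls, meiosis went from 8 to 4, hedgehog from 8 to 5, mesothelial genes from 3 to 1, the mesonephric duct from 2 to 0, proteases from 2 to 1, and smooth muscle and interferon from 1 to 0. Among rises, proteases went from 9 to 4, retinoid genes from 5 to 3 and the mesonephric duct from 4 to 2. With the mean of features, falls of interferon genes went from 1 to 0, and rises of glycolysis and hormone receptor genes from 1 to 2. On these 4 arrays alone, DNA replication had 0 falls. The labels give no replicate numbers, but the titles form 2 runs that list the groups in the same order. With that run as a replicate block, chosen after seeing the data, 11886 genes were called, 3925 with a size of 1 or more; of the list and named genes 0 lost and 12 gained a call. The run 1 minus run 2 differences of the cultures and the gonad correlated at r = 0.125 across 15100 genes, which are not independent, and the labels do not say what a run shares. With 2 arrays per group, age, culture and cell isolation cannot be told apart, and dim values have no known background.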

Other observations

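Single genes outside the lists are given here; they were chosen after their values were seen and stand for no group. Nodal, a ligand of early embryos, read 8.02 and 7.91 in the cultures and 11.87 and 11.85 in the gonad. Of its inhibitors, Lefty2 read 8.27 and 8.15 in the cultures and 14.31 and 14.33 in the gonad, and Lefty1 read 8.25 and 8.53 in the cultures and 13.39 and 13.54 in the gonad. For all 3 both culture arrays lay within about 1 of the array median and both gonad arrays more than 4 above it. The homeobox genes Otx2 and Hesx1 fell, with differences of -6.26 and -5.10, as did Khdc3, Tcl1 and Dppa4, with -6.14, -4.98 and -4.33; the features of Dppa4 ranged from -4.33 to -2.39. Gdf3 fell by 1.57 on the feature used and had -6.60 on the other.

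Rises chosen in the same way follow. Slpi, an antiprotease of mucosal surfaces, read 12.75 and 12.77 in the cultures and 7.77 and 7.76 in the gonad, and its relative Wfdc18 read 13.38 and 13.47 in the cultures and 8.96 and 9.05 in the gonad. C1s1, which starts the complement cascade, read 14.70 and 14.91 in the cultures and 9.74 and 9.71 in the gonad, and Cp, ceruloplasmin, rose by 5.32 on the feature used and by 1.85 on the other. F3, the tissue factor that starts clotting, read 16.39 and 16.35 in the cultures and 10.63 and 10.64 in the gonad, and Thbs1, a matricellular protein released by platelets and stressed cells, read 16.60 and 16.66 in the cultures and 10.75 and 10.95 in the gonad. In Slpi, Wfdc18, C1s1, F3 and Thbs1 both culture arrays lay at least 4 above both gonad arrays. Edn1, the vasoconstrictor endothelin, rose by 5.11, and its 10 features lay between 5.04 and 5.15. The keratin Krt7 of simple epithelia rose by 4.30. Wdr92 rose by 5.08 on the feature used, but its other feature gave -0.17.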
